A study of Rattus norvegicus with 16 samples.

Results

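Many genes give rise to more than 1 transcript, through alternative promoters, splice sites or ends. When RNA-seq reads are assembled into transcripts, overlapping models are grouped into a locus, and reads that fit several models have to be divided among them. The sum over all models of a locus therefore follows its whole output, while the share of each model also depends on that division. The loci described here are the simplest ones in which a sum and a share can be followed in rat heart. They are assembled loci with exactly 2 transcripts listed for every library. In 578 of the 1145 loci the numbering points to at least 1 further model. There the 2 transcripts need not hold the whole output, and their shares need not be shares of all models. The spontaneously hypertensive rat (SHR) is an inbred strain that develops high blood pressure and an enlarged heart, and the Wistar Kyoto rat (WKY) is the normotensive strain usually set against it. Neferine is an alkaloid of lotus seed embryos.

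Ribosomal-RNA-depleted total RNA from whole heart tissue was profiled in 16 libraries, each taken as 1 rat. The 5 WKY and the 5 SHR received double distilled water by stomach tube, and a further 6 SHR received neferine at 10 mg/kg/day by the same route for 10 weeks. The labels state no age. The libraries of each group were numbered in their titles, and the numbers are used as names below. The free-text description of SHR 1 reads WKY, whereas its title, strain and group read SHR, and it was kept as SHR. Each file gave 1 normalised abundance per transcript on a linear scale, called the signal below, and no read counts.

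Assembled transcripts carry identifiers made of MERGE, a locus number and a transcript number. Of the 31042 transcripts present in all 16 files, 18489 were assembled, from 10355 loci. Exactly 2 transcripts were present for 1815 loci, and 1145 of these had a locus sum of at least 2 in at least 12 libraries. The other 670 fell under that minimum and were not tested. The 1145 loci, with 2290 transcripts, are described below. The loci MERGE.14815, MERGE.6140, MERGE.14292 and MERGE.16966 were left out by the rule, which removed nothing because they had 4, 1, 44 and 1 transcripts in all files. The identifiers matched 0 of the names and accessions in the RefSeq table of the rat assembly GRCr8. The loci are therefore named by number alone, no gene, position or sequence is given for them, and markers of heart muscle and of other cell types were not checked.

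The median values just inside and just outside the rule were close. The 69 loci that reached a sum of 2 in exactly 12 libraries had mean sums from 2.19 to 9.12 with a median of 2.76. The 74 loci that reached it in 11 had mean sums from 1.97 to 41.4 with a median of 2.6. All 16 libraries were at or above 2 in 757 of the 1145 loci.

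Most of the loci had a low signal, and a few had a very high one. The mean sum over the 16 libraries had quartiles of 3.7, 5.84 and 12.1. It was under 5 in 482 loci, at least 20 in 154, at least 100 in 13 and at least 1000 in 2. Together the 1145 loci held between 2.5% and 3.67% of the summed signal of all shared transcripts in a library, with the lowest value in SHR 2. The sources used here do not say whether the authors scaled the signal by transcript length, so levels of different loci are ordered only by deposited value, and a share of the locus sum need not be a share of molecules.

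MERGE.12335 had the highest sum, and almost all of it came from its first transcript. Its sum in WKY 1, 3, 4, 5 and 6 was 2986.5, 3400.4, 4084.0, 4533 and 4591. In SHR 1, 2, 3, 4 and 6 it was 5774, 1533.5, 4718, 3944 and 5746, and with neferine it ran from 3796.5 to 5590.5 with a median of 4552. SHR 2 lay below every other library, and the 3 groups overlapped. The second transcript was listed at 0 in 11 libraries and reached 100.2 in SHR 3, 131.8 in neferine 1 and 86.5 in neferine 4. The first transcript held 99.6% of the sum on average.

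The lower-numbered transcript held over 50% of the sum, as a mean of its share over the 16 libraries, in 782 of the 1145 loci (68.3%). Its mean share had quartiles of 43.5%, 61.9% and 77.5% and ran from 2.59% to 99.6%. A share over 90% was found in 70 loci, one under 10% in 18, and one between 40% and 60% in 289. In the 567 loci whose transcripts were numbered 1 and 2 the median share was 65.3%, and the first transcript held over 50% in 76.2%. In the 578 loci with other numbers, where at least 1 model of the numbering was not among the shared transcripts, the median was 57.5% and the proportion 60.6%. The higher-numbered transcript was listed at 0 in at least 1 library in 465 loci, against 221 for the lower-numbered one. In 8 or more libraries the counts were 91 and 17.

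**Figure D1:**
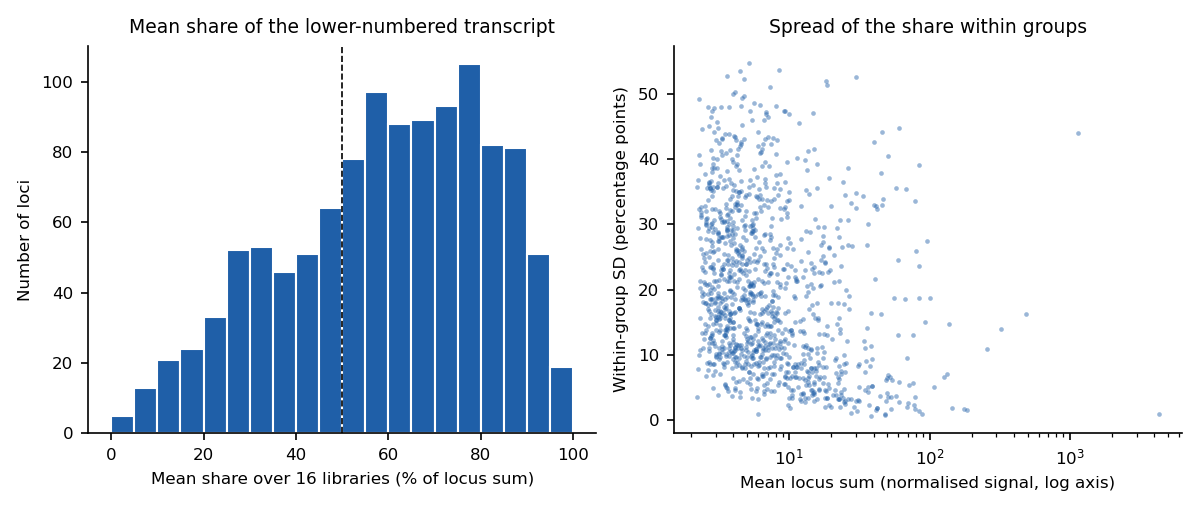
Left, number of loci by the mean share of the lower-numbered transcript, in percent of the locus sum over 16 libraries, in bins of 5 points; the dashed line marks 50%, and 782 of 1145 loci lie above it. Right, 1 point per locus, the SD of that share within groups, in percentage points, against the mean locus sum on a log axis; the median SD was 22.2 points for sums under 5 and 8.61 points for sums of 20 or more.

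Single transcripts varied more between rats of one group than locus sums did, and shares were widely spread. The SD of the share within groups had quartiles of 9.93, 18 and 28.7 percentage points. It was smaller in loci with a higher sum: the median was 22.2 points in the 482 loci with a mean sum under 5, 15.7 points in the 509 with 5 to 20, and 8.61 points in the 154 with 20 or more. The coefficient of variation (CV, the SD as a percent of the mean) within groups had a median of 23.7% for the sum. For the lower-numbered and the higher-numbered transcript it was 40.4% and 56.0%. The sum had a smaller CV than either of its transcripts in 884 loci (77.2%). Within groups the signals of both transcripts were negatively correlated in 815 loci (71.2%), with a median coefficient of -0.357 over the 16 libraries. The coefficient was under -0.5 in 467 loci and over 0.5 in 84. Both transcripts of a locus draw on the same reads of the same library, so these coefficients are given as a description. A sum of parts that do not rise together tends to have a smaller CV than the parts, so the CVs are a description too.

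In 293 loci the lower-numbered transcript held at least 90% of the sum in one library and at most 10% in another. In 256 of them both extremes occurred within a single group, in 141 loci within WKY, 140 within SHR and 144 within the neferine group. These exchanges were not limited to loci of low signal. The median mean sum was 4.73 in the 293 loci and 6.35 in the others, and the median CV of the sum was 29.8% and 22.2%. In 102 of the 293 the CV of the sum was under 25%.

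MERGE.15166, the locus with the second highest sum, shows such an exchange at high signal. Its sum in WKY 1, 3, 4, 5 and 6 was 1518, 1294, 1063, 1133.5 and 1270.2. In SHR 1, 2, 3, 4 and 6 it was 1044, 1082, 1309, 1077 and 1246, and with neferine it ran from 951.2 to 1207. The highest sum was thus only 1.6 times the lowest, and the groups overlapped. The first transcript held 100% of it, after rounding, in WKY 1, 5 and 6, but 0.0103% and 0.0125% in WKY 3 and 4, where the second transcript held the rest. Among SHR the share was 20.7% in SHR 3 and between 98.5% and 100% in the other 4. With neferine it was 0.00881% in rat 4 and between 93.1% and 100% in the other 5. Taken alone, MERGE.15166.1 was at 0.133 in WKY 3 and at 1518 in WKY 1.

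MERGE.9951 and MERGE.4056 both had a mean share of 50%, but by different routes. In MERGE.9951 the first transcript held 86.3%, 12%, 14.7%, 1.55% and 14% of the sum in WKY 1, 3, 4, 5 and 6, and 3.43%, 99.9%, 91.0%, 87.6% and 85.0% in SHR 1, 2, 3, 4 and 6. With neferine it ranged from 0.664% to 99.9%. WKY were thus mostly low and SHR mostly high, with 1 exception each. The share was not called between the strains (limma, adjusted p = 0.686), and its SD within groups was 42.9 points. In MERGE.4056 the share stayed between 36.1% and 68.4% in all libraries, with an SD within groups of 7.45 points. Both of its transcripts lay between 1.42 and 5.25.

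**Figure D2:**
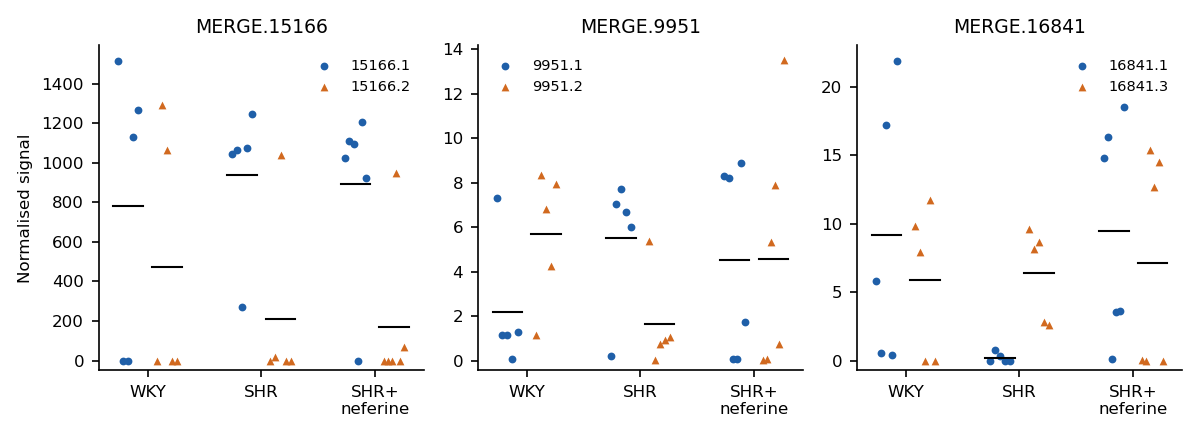
Signal of both transcripts (circles, lower-numbered; triangles, higher-numbered) in each library by group for MERGE.15166, MERGE.9951 and MERGE.16841, on linear axes; black bars are group means. In MERGE.15166 either transcript is near 0 where the other is at about the level of the locus, as in WKY 1 with MERGE.15166.1 at 1518 and WKY 3 with MERGE.15166.2 at 1294.

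A minority of the transcripts allowed a look at the reads behind the signal. In 537 of the 2290 transcripts (23.4%) every value above 0 was a whole multiple of 1 step, within 0.03 of a step and with 1 scale factor per library. Only transcripts whose lowest value above 0 was at most 40 steps could be found this way. Taken as reads or fragments, these steps gave a median of 147 per library and 140.9 per unit of signal, and a step was worth up to 1.32 times as much in one library as in another. The steps were not found in most transcripts, so no count test was run, and these figures describe only the transcripts that show them.

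The WKY and SHR files list a different set of transcripts from the neferine files, and the locus sum covers only the transcripts shared by all files. Of the 1145 loci, 128 had 164 further transcripts in 1 set of files, 100 of them in the WKY and SHR files alone and 64 in the neferine files alone. In these 128 loci the further transcripts held a median of 14.7% of the locus in the group where they were highest. They held over 20% in 38 loci.

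Sums were next compared between untreated SHR and WKY with limma on log2(sum + 1), fitted over all 4715 assembled loci that met the minimum whatever their number of transcripts. A locus is called below where the Benjamini-Hochberg adjusted p was under 0.05. Of the 1145 loci, 13 were called higher in SHR (1.14%) and 6 lower (0.524%). Over all 4715 loci 1.4% were called higher and 1.15% lower. The values of both strains did not overlap in 42 of the 1145 loci (3.67%), and in 3.86% of all loci tested. Of the 19 called, 17 did not overlap. In 1 of the 19, MERGE.14858, fewer than 3 rats of a strain reached the minimum sum, so that it met the rule through the strain where it is high. Without the minimum on the loci tested, 18 of the 1145 were called higher and 10 lower. The called differences ran from 0.31 to 2.24 upward and from -0.4 to -2.56 downward on the log2 scale, where the added 1 makes the difference smaller at low signal. The median absolute difference was 0.153 in the 1145 loci and 0.152 in all. In RNA of whole tissue, fewer cells of a type and less RNA per cell cannot be told apart.

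Shares were compared on the log2 ratio of the lowest-numbered transcript to the rest, with 0.5 added to each, over the 2831 loci with 2 or more transcripts. In 4 of the 1145 loci the share of the lower-numbered transcript was called higher in SHR and in 5 lower. Of the 4, MERGE.14858 met the rule through SHR, as stated above. Of all 2831 loci, 0.283% were called higher and 0.424% lower. The shares of both strains did not overlap in 31 loci (2.71%), against 2.12% of all, and 8 of the 9 called loci were among them. Sum and share were both called in 4 loci, MERGE.14858 among them, the sum alone in 15 and the share alone in 5. By either measure 24 of the 1145 loci were called between the strains. In 6 of these 24 both transcripts were apart between the strains, in 6 the lower-numbered alone, in 7 the higher-numbered alone and in 5 neither. In 3 of the 24 loci the transcripts lay apart in opposite directions. The 24 were called on differences between the same strains, so transcripts that lie apart follow in part from that choice. These counts only describe the 24, and no share over all loci stands beside them.

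**Figure D3:**
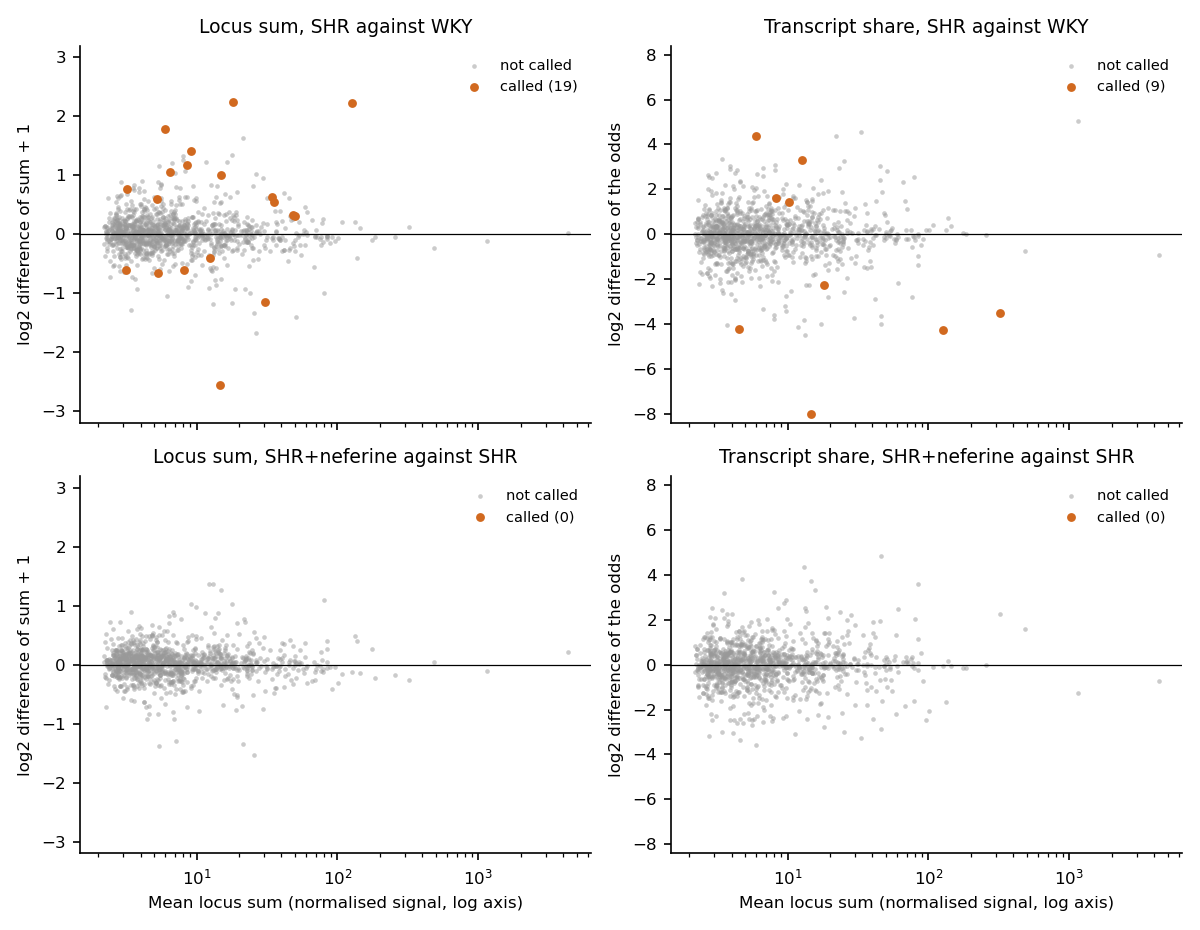
Differences of the 1145 loci against their mean sum (log axis); upper row SHR against WKY, lower row neferine-treated against untreated SHR; left, log2 difference of the sum + 1; right, log2 difference of the odds of the lower-numbered transcript with 0.5 added to each transcript. Orange points passed an adjusted p of 0.05 in limma: 19 and 9 in the upper row, 0 and 0 in the lower.

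The 4 libraries WKY 1, WKY 3, SHR 3 and SHR 4 lay on one side of the first component of the residuals, at -0.292 to -0.448. The other WKY and SHR lay between 0.138 and 0.376, and the neferine libraries between -0.151 and 0.154. Without these 4 libraries, 10 loci were called by sum, 8 higher and 2 lower in SHR, and 8 of the 10 were among the 19. By share 5 were called, 1 higher and 4 lower, 4 of them among the 9. Fewer rats of each strain remain in that fit, so calls can be lost where the difference itself hardly moves. Without SHR 6, the calls by sum were 10 higher and 10 lower, and without SHR 3 those by share were 3 and 3. Residuals are taken from the group means, so each strain has libraries on both sides by construction. The part of this component in the results was not tested. Among the 17 loci called by sum without SHR 1, the rat with the WKY description, its value was nearer to the other SHR in 13 and nearer to WKY in 4. The same check on each other untreated library placed between 13 and 19 loci with its own strain out of 15 to 23.

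MERGE.10412 rose most in SHR, through both of its transcripts. Its sum in WKY 1, 3, 4, 5 and 6 was 4.15, 4.93, 5.31, 2.93 and 4.31. In SHR 1, 2, 3, 4 and 6 it was 25.7, 23.6, 26.2, 18.2 and 26.6, and with neferine it ran from 19.8 to 29.9 with a median of 24.6. All SHR of either treatment lay above all WKY. The second transcript was near 0 in WKY and not in SHR: it was at 0.386, 0.691, 0.534, 0 and 0 in WKY and between 7.77 and 12.5 in SHR. The first was at 2.93 to 4.78 in WKY and 10.4 to 15.1 in SHR. The sum differed by 2.24 on the log2 scale (SE 0.142, limma adjusted p = 4.94e-08). The share of the first transcript was 93.3% ± 6.35 (SD, n = 5) in WKY and 55.3% ± 2.42 (SD, n = 5) in SHR (limma adjusted p = 0.000149).

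MERGE.9944 showed the same order at a higher signal. Its sum was 47.7, 42.6, 33.7, 27.8 and 32.4 in WKY 1, 3, 4, 5 and 6. It was 139.2, 142.7, 216.9, 209.9 and 173.9 in SHR 1, 2, 3, 4 and 6, and with neferine it ran from 134.0 to 191.6 with a median of 156.2. Again no SHR reached down to the WKY values. Transcript MERGE.9944.2 was at 0.527, 0.398, 0.523, 0 and 0 in WKY and between 40.8 and 58.1 in SHR, while MERGE.9944.1 was between 27.8 and 47.2 in WKY and between 84.8 and 174.1 in SHR. The difference of the sum was 2.23 (SE 0.16, limma adjusted p = 2.47e-07). The first transcript held 99.3% ± 0.693 (SD, n = 5) in WKY and 70.7% ± 9.31 (SD, n = 5) in SHR, and the share was called lower too (limma adjusted p = 3.11e-06).

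At MERGE.18957 most of the signal was assigned to a different transcript in each strain. Transcript MERGE.18957.1 was at 45.1, 44.5, 29.2, 31.0 and 28.4 in WKY 1, 3, 4, 5 and 6 and at 0.655, 0.322, 0.88, 1.03 and 0.803 in SHR 1, 2, 3, 4 and 6. Transcript MERGE.18957.3 was at 0.0287 to 0.0697 in WKY and at 4.24, 4.41, 4.36, 3.85 and 4.94 in SHR. Each transcript was thus near 0 in the strain where the other was high, and neither overlapped. The sum fell from 35.7 ± 8.39 (SD, n = 5) in WKY to 5.1 ± 0.407 (SD, n = 5) in SHR, a log2 difference of -2.56 (SE 0.134, limma adjusted p = 5.26e-09). The first transcript held 99.8% to 99.9% in WKY and 6.81% to 21.1% in SHR, the largest called difference of odds among the 1145 loci (limma adjusted p = 4.65e-11). With neferine its share was between 6.59% and 17.6%.

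MERGE.14858 had the widest difference in percent share of the 9 loci called by share between the strains. Its first transcript was listed at 0 in all 5 WKY, so no fold is given for it, and lay at 5.89, 4.69, 8.15, 8.06 and 5.88 in SHR 1, 2, 3, 4 and 6. The other transcript, MERGE.14858.3, was at 1.64, 2.38, 1.04, 1.09 and 0.899 in WKY and between 0.34 and 1.14 in SHR, where the ranges overlapped. The first transcript therefore held 0% in every WKY and 86.7% to 93.6% in SHR, and 79.3% to 92.2% with neferine. The sum reached the minimum of 2 in 1 WKY and in all SHR, treated or not. The locus thus met the rule through SHR, and its sum, 1.41 ± 0.611 (SD, n = 5) in WKY and 7.29 ± 1.82 (SD, n = 5) in SHR, had to differ and is given as a description. The share in WKY rests on these low sums. The first transcript brought the locus past the minimum in SHR, so the share is given as a description too, and no weight is put on its call.

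MERGE.12909 changed in share but not detectably in sum. Its first transcript held 12.7%, 9.32%, 10.1%, 26.1% and 15.7% in WKY 1, 3, 4, 5 and 6 and 71.8%, 37.5%, 79.2%, 73.6% and 69.5% in SHR 1, 2, 3, 4 and 6. With neferine it held between 30.4% and 80.2%, with a median of 66.1%. SHR 2 was the lowest SHR and still lay above all WKY. Transcript MERGE.12909.2 was at 9.21 to 14.8 in WKY and 2.68 to 4.32 in SHR, while MERGE.12909.1 was at 1.17 to 3.25 in WKY and 2.59 to 10.7 in SHR. The share was called higher (log2 difference of the odds 3.29, limma adjusted p = 0.00819). Without the 4 libraries above the difference was 2.65 and was not called (limma adjusted p = 0.357). The sum was 13.4 ± 2.08 (SD, n = 5) and 12.3 ± 3.11 (SD, n = 5), with a 95% interval of the log2 difference from -0.59 to 0.3. A further transcript of MERGE.12909 is present in 1 set of files. It enters neither this sum nor the share, which describe the shared transcripts alone.

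MERGE.17819 was lower in SHR in its sum, with no call in its share. Its sum was 5.97, 6.61, 7.4, 6.73 and 8.85 in WKY 1, 3, 4, 5 and 6 and 5.52, 4.0, 3.87, 3.42 and 3.92 in SHR 1, 2, 3, 4 and 6. SHR 1 was the highest SHR, just under the lowest WKY. The log2 difference was -0.66 (SE 0.126, limma adjusted p = 0.00779). One more transcript of this locus is present in 1 set of files, and with all transcripts of the WKY and SHR files, fitted in those 2 groups alone, the difference was -0.66 (limma adjusted p = 0.111). Without the 4 libraries above it was -0.67 (limma adjusted p = 0.0597).

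**Figure D4:**
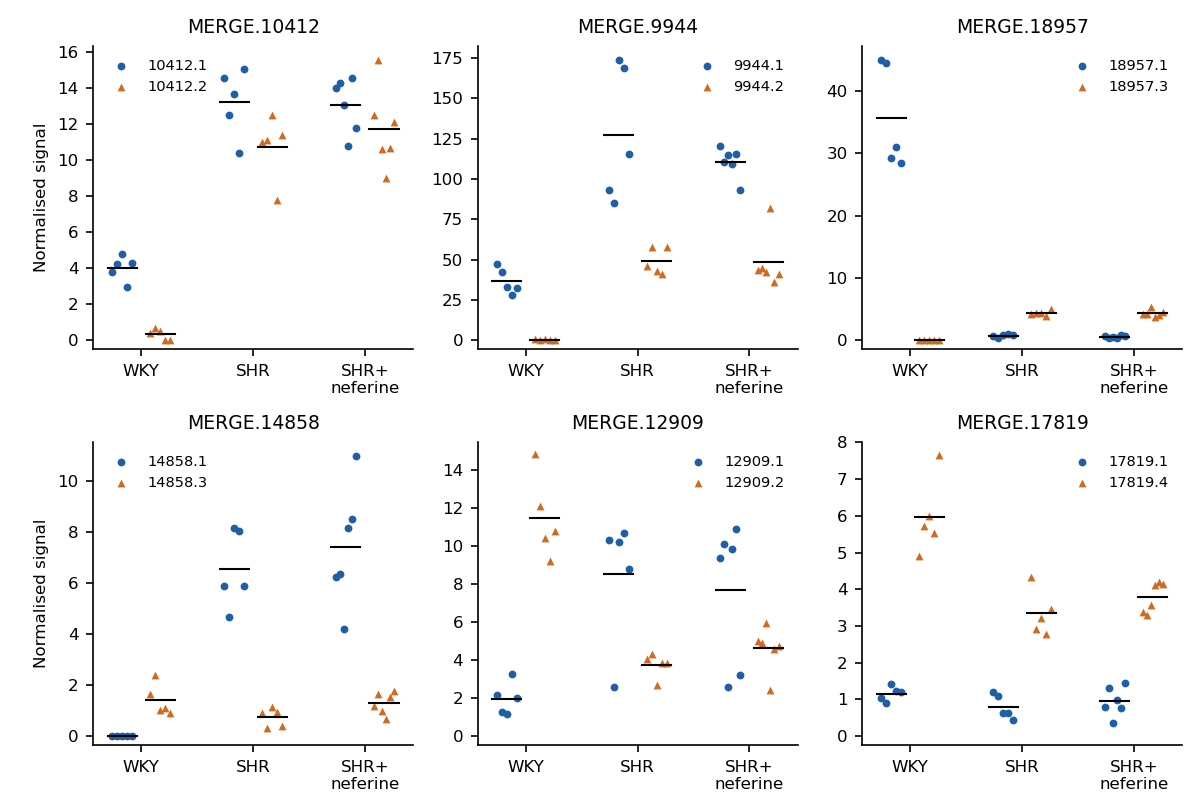
Signal of both transcripts (circles, lower-numbered; triangles, higher-numbered) in each library by group for 6 loci called between SHR and WKY, on linear axes that differ between panels; black bars are group means. At MERGE.18957 the circles are at 28.4 to 45.1 in WKY and the triangles at 3.85 to 4.94 in SHR, and none of the 6 loci was called between treated and untreated SHR.

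In the other 4 loci called by share between the strains, the mean share of the lower-numbered transcript went from 5.86% in WKY to 20.6% in SHR, from 67.0% to 88.1%, from 48.3% to 9.02% and from 100% to 30.7%. The third of these had a mean sum of 323.4 in WKY and 353.2 in SHR, and the fourth 3.98 and 4.91. None of the 4 was called by sum.

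Neferine-treated SHR were then compared with untreated SHR by both quantities. All treated libraries belong to one set of files and all untreated ones to the other. Treatment and set of files therefore cannot be told apart. By sum 0 of the 1145 loci were called higher and 0 lower, against 0% and 0% of all 4715 loci. By share the counts were also 0 and 0, against 0% and 0% of the 2831 loci. At an unadjusted p under 0.05 limma gave 62 of the 1145 loci by sum (5.41%, against 5.32% of all) and 57 by share (4.98%, against 4.87%). The smallest limma adjusted p among the loci was 0.354 for a sum and 0.211 for a share. For sums the 95% interval of the difference lay within 1 log2 unit either way in 961 loci (83.9%). For shares it did so in 211 (18.4%), with a median SE of 0.655 against 0.175 for sums, so a moderate change in share was not detectable in most loci.

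The 2 sums with the smallest unadjusted p are given with their values, as loci that were not called. MERGE.16841 had a sum of 9.59, 8.9, 8.99, 2.85 and 2.59 in SHR 1, 2, 3, 4 and 6 and from 14.8 to 18.5 with neferine (median 16.3). Treated rats lay above untreated ones, while WKY ran from 8.52 to 21.9. The log2 difference was 1.37 (SE 0.295, limma adjusted p = 0.354). The first transcript held 0.603% to 100% with neferine, 3.1% to 100% in WKY and at most 8.46% in untreated SHR. At MERGE.12263 the sum was 3.55, 3.15, 3.83, 3.27 and 2.88 in SHR 1, 2, 3, 4 and 6 and from 4.0 to 6.36 with neferine (limma adjusted p = 0.514). In WKY it ran from 2.34 to 3.04, and against WKY the treated sum was called higher (log2 difference 0.67, limma adjusted p = 0.00149). The first transcript of MERGE.12263 held 0% to 100% in untreated SHR, 33.0% to 99.9% with neferine and 67.2% to 81.3% in WKY.

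The 2 shares with the smallest unadjusted p were those of MERGE.12483 and MERGE.15475. In MERGE.12483 the first transcript held 97.0%, 73.3%, 98.8%, 99.1% and 42.2% in SHR 1, 2, 3, 4 and 6. With neferine it held 9.59% to 42.5%, with a median of 23.9%, and in WKY 51.8% to 93.4%. SHR 6, at 42.2%, lay inside the treated range. The share was not called with all libraries (limma adjusted p = 0.211) and was called without SHR 6 (limma adjusted p = 0.0302). In MERGE.15475 the first transcript held 97.6% to 99.1% in SHR, 25.6% to 74.2% with neferine and 21.7% to 99.3% in WKY (limma adjusted p = 0.731). One further share, that of MERGE.19064, was called only without the 4 libraries (limma adjusted p = 0.00165, against 0.915 with all), and was singled out after its values were seen. There the first transcript held 14.5%, 14.7% and 37.7% in SHR 1, 2 and 6, 98.7% and 100% in SHR 3 and 4, and 97.6% or more in all treated rats and in all WKY.

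Treated SHR were also compared with WKY, where the groups again come from different sets of files. This comparison shares the WKY libraries with that of the strains, so its calls are not independent of those above. By sum 20 loci were called higher (1.75%) and 11 lower (0.961%), against 2.21% and 1.78% of all 4715 loci. In 3 of the 20, MERGE.14858, MERGE.2437 and MERGE.20521, fewer than 3 WKY reached the minimum sum, so these met the rule through SHR; the last 2 are named only for this, after their values were seen. By share 3 were called higher and 4 lower, against 0.283% and 0.459% of the 2831 loci. MERGE.14858 was again among the 3 called higher. Leaving out WKY 1 gave 11 higher and 10 lower by sum, and 4 and 7 by share. Without neferine 1, 4, 5 or 6 between 12 and 13 were called higher by sum and between 9 and 11 lower. With a minimum sum of 5, in place of 2, 16 loci were called by sum.

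The log2 difference of the sum from WKY was 2.29 at MERGE.10412, 2.1 at MERGE.9944, -2.63 at MERGE.18957 and -0.5 at MERGE.17819. All 4 were called by limma, with adjusted p from 1.88e-09 to 0.0279. Against untreated SHR the same sums differed by 0.05, -0.13, -0.07 and 0.16, with no call. The share at MERGE.12909, within its shared transcripts, was 59.0% ± 19.2 (SD, n = 6) with neferine, 44.2 points above WKY (limma adjusted p = 0.0152).

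Among loci not called between untreated SHR and WKY, with no overlap and a mean sum of at least 5 in the higher group, MERGE.6748 had the largest sum difference called higher in treated SHR. Its sum was 5.4, 5.06, 4.59, 5.43 and 5.65 in WKY 1, 3, 4, 5 and 6, from 5.44 to 7.64 in SHR, and from 6.6 to 12.6 with neferine (median 8.88). Untreated SHR lay between both groups and overlapped them. The log2 difference from WKY was 0.66 (SE 0.147, limma adjusted p = 0.0173). With all transcripts of each file the difference was 0.51 (limma adjusted p = 0.101), and without the 4 libraries it was 0.67 (limma adjusted p = 0.0792). The first transcript held 64.7% in SHR 2 and 92.8% or more in every other library.

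MERGE.1004 and MERGE.1624 had the largest differences called lower under the same conditions. At MERGE.1004 the sum was 8.33, 9.18, 7.46, 8.09 and 8.6 in WKY 1, 3, 4, 5 and 6 and from 3.69 to 5.95 with neferine. Untreated SHR ranged from 4.8 to 10.5 and spanned both. The log2 difference from WKY was -0.76 (SE 0.161, limma adjusted p = 0.0125). At MERGE.1624 the sum was 37.0, 37.5, 37.6, 35.1 and 30.8 in WKY, from 20.5 to 32.6 in SHR and from 18.2 to 23.4 with neferine. Its log2 difference from WKY was -0.7 (SE 0.113, limma adjusted p = 0.00175), and that from untreated SHR was -0.28 (limma adjusted p = 0.928). Nearly all of it was transcript MERGE.1624.4, and MERGE.1624.1 held at most 13% in any library.

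MERGE.2851 was the locus added by share in the comparison of treated SHR with WKY. Its first transcript held 97.2% to 98.4% in WKY and 91.9% to 95.4% with neferine, a difference of -4.35 points (limma adjusted p = 0.0152). On the linear percent scale the limma adjusted p was 0.539. On the log2 scale of the odds the difference was -1.72 with all libraries, and -1.69 without the 4 libraries above (limma adjusted p = 0.123). The sum moved more than the share. It was 51.4, 59.9, 53.7, 43.9 and 54.5 in WKY, 44.9, 15.7, 25.9, 19.9 and 17.8 in SHR 1, 2, 3, 4 and 6, and from 13.8 to 18.7 with neferine. SHR 1, the rat with the WKY description, lay within the WKY range at this locus, and the other 4 SHR lay below it. The sum was called lower in SHR than in WKY (log2 difference -1.15, SE 0.208, limma adjusted p = 0.00544). MERGE.2851 also has a further transcript in 1 set of files, which enters neither the sum nor the share. Its part in the difference of share was not tested.

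**Figure D5:**
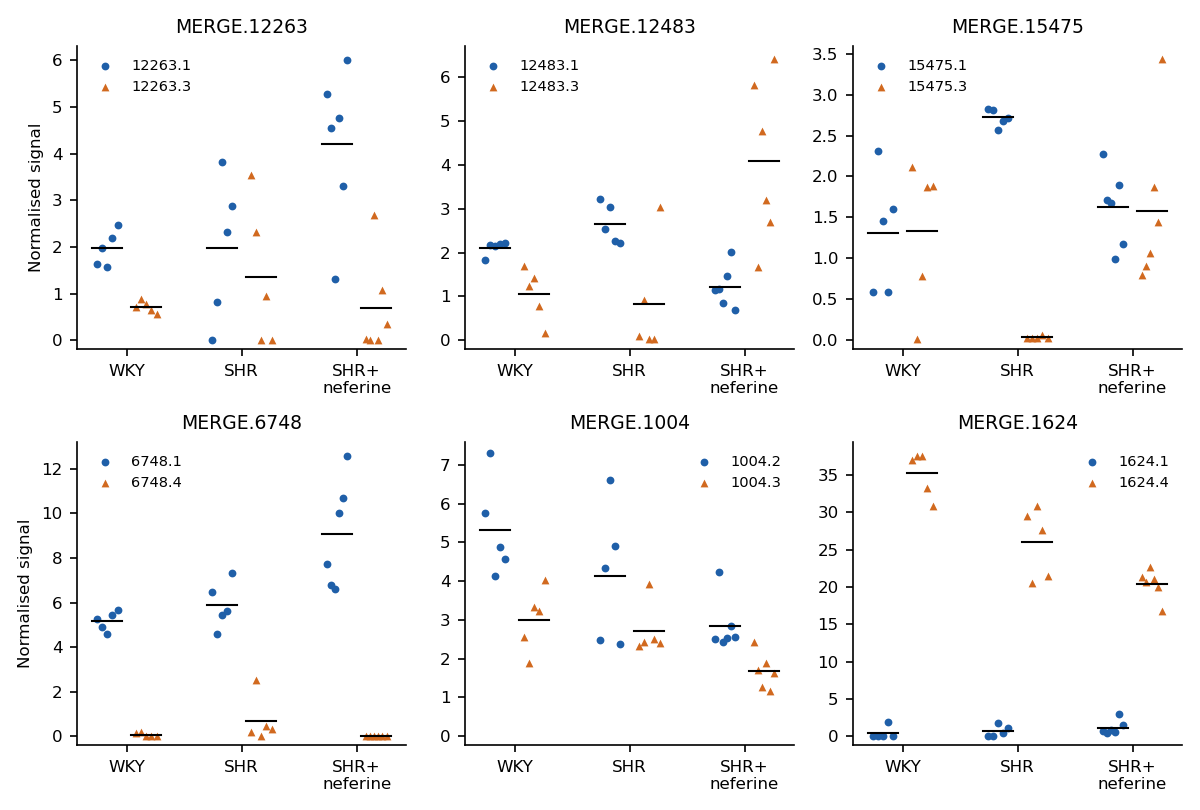
Signal of both transcripts (circles, lower-numbered; triangles, higher-numbered) in each library by group; upper row, 3 loci with small unadjusted p for neferine against untreated SHR that were not called; lower row, 3 loci called by sum for neferine-treated SHR against WKY. Axes are linear and differ between panels, and black bars are group means; at MERGE.1624 the triangles are at 30.8 to 37.6 in WKY and 16.8 to 22.6 with neferine.

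Loci of 2 transcripts were set beside loci of other sizes as a description. By sum between the strains, 1.66% of the 1145 loci were called, against 2.76% of the 1884 loci with 1 transcript, 2.89% of the 1626 with 3 to 9 and 3.33% of the 60 with 10 or more. By share 0.786% were called, against 0.677% of the loci with 3 to 9 and 0% of those with 10 or more. By mean signal over the libraries, in place of mean share, the lowest-numbered transcript was the most abundant in 67.2% of the loci with 2 transcripts, in 37.5% with 3 to 9 and in 8.33% with 10 or more. Any given transcript is less often the most abundant where a locus has more of them, so a fall with size is in part built in. The median SD of the log2 sum within groups was 0.252, 0.295, 0.319 and 0.385 in the same order of size. These differences between classes were not tested.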

How the data were processed

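RNA was depleted of ribosomal RNA and made into libraries with NEBNext kits, per the labels' protocols. Each deposited file pairs transcript identifiers with the authors' normalised signal on a linear scale. The exact unit, aligner, assembler, build and depth are not given in the sources used here, and limma is the only tool in the submitters' processing notes. The WKY and SHR files and the neferine files hold different sets of transcripts, so only those in all 16 files were summed.

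The locus sum was tested with limma 3.58.1 in R 4.3.3 on log2(sum + 1) with a variance trend. The share was tested on the log2 ratio of the lowest-numbered transcript to the rest, with 0.5 added to each and a trend on the mean log2(sum + 1). All 16 libraries entered 1 fit with 1 mean per group, and p-values were two-sided and adjusted (Benjamini-Hochberg) over 4715 and 2831 loci, with a threshold of 0.05. Intervals are 95% intervals of the fit. The fits were also run on simulated data with the real means and within-group spread. Those values were drawn as normal, unlike shares that go to both extremes within a group, and nothing is concluded from them here. Each library number was taken as 1 rat; the p-values measure the spread between these libraries.

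Tables were prepared with pandas 2.3.3. The alternatives were other pseudocounts, other minimum sums, percent shares, another scaling, only the groups compared, the replicate number as a block, all transcripts of each file, and the omission of each library or of 4 libraries together. The named loci were, per measure and comparison, up to 2 higher and 2 lower with the largest difference among called loci whose groups did not overlap and whose mean sum was at least 5 in the higher group. Where fewer than 2 were called, the 2 smallest unadjusted p were taken. The 2 highest sums and the 2 shares nearest to 50% were added. The loci, the tests and the 4 libraries were chosen with earlier results of these data known.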

Additional observations from a re-analysis of the deposited data

Results flagged for a closer look

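Within each group the highest and the lowest library of every named locus were compared with the rest by Dixon's criterion, for sums and shares. Of 108 groups examined, 15 held a library that stood apart. For normally distributed values chance gives about 1 in 20 groups. Shares are bounded and several lie at a limit, so that rate need not hold for them and no excess is read from the count. The causes were not tested.

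Most of the values that stood apart were shares. In MERGE.15166 the first transcript held 20.7% in SHR 3, against 98.5% or more in the other SHR, and 0.00881% in neferine 4, against 93.1% or more in the other treated rats. In MERGE.9951 it held 86.3% in WKY 1, against at most 14.7% in the other WKY, and 3.43% in SHR 1, against at least 85.0% in the other SHR. In MERGE.12263 it held 33.0% in neferine 3, against at least 75.4%. In MERGE.9944 it held 57.2% in neferine 4, against 69.5% to 76.0%. In MERGE.1624 the first transcript held 5.4% in WKY 5 and 0% in the other WKY. In MERGE.12335 the shares of 99.8% in WKY 1 and 97.9% in SHR 3 stood apart from 100% in the others of their group, and in MERGE.15475 the share of 97.6% in SHR 4 stood apart from 98.9% to 99.1%.

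SHR 2 stood apart at 2 loci. In MERGE.6748 its share was 64.7%, against at least 92.8% in the other SHR. In MERGE.12909 both its share, 37.5% against at least 69.5%, and its sum, 6.9 against at least 12.7, were low.

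The other sums were those of MERGE.17819 in SHR 1, 5.52 against at most 4.0 in the other SHR, and of MERGE.15475 in neferine 6, 4.61 against at most 3.34 in the other treated rats.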

How the results depend on the processing

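Leaving out WKY 1, WKY 3, SHR 3 and SHR 4 gave 10 calls by sum and 5 by share between the strains, in place of 19 and 9, and 1 by share for neferine against SHR in place of 0. Fewer rats of each strain remain in that fit. A minimum sum of 5 gave 16 calls by sum for neferine against WKY in place of 31; fewer loci are tested there. Without a minimum on the loci tested, 18 loci were called higher and 10 lower by sum for SHR against WKY in place of 13 and 6, and with a minimum of 5 the shares called there were 4 higher and 3 lower in place of 4 and 5. With 1 library left out in turn, calls by sum ranged from 15 to 23 for SHR against WKY, were 0 throughout for neferine against SHR, and ranged from 21 to 31 for neferine against WKY. Calls by share ranged from 6 to 11, from 0 to 1 and from 6 to 11. The single call was MERGE.12483 without SHR 6, and the 11 for neferine against WKY came without WKY 1. The causes were not tested.

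Same-numbered rats of different groups deviated together by more than 0.1 in 2 of 14 pairs (range -0.118 to 0.252), so the numbers were not taken to pair them. With the replicate block, sums gave 13 calls for SHR against WKY, 0 for neferine against SHR and 22 for neferine against WKY, and shares gave 6, 0 and 6. The 6 for SHR against WKY were 2 higher and 4 lower. With the block the sum at MERGE.17819 differed by -0.65 between SHR and WKY (limma adjusted p = 0.0577), and the odds at MERGE.2851 by -1.65 between treated SHR and WKY (limma adjusted p = 0.111), so neither was called.

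The share results depend on the pseudocount in size: the log2 difference of the odds at MERGE.18957 ran from -10.38 to -5.39 and that at MERGE.14858 from 2.38 to 6.89, and all these values were called. Of 288 alternative values for the named loci, none reversed, 278 stayed on their side of the threshold, 9 lost a call and 1 gained one. The losses were at MERGE.17819, MERGE.6748, MERGE.12909 and MERGE.2851. Most named loci were chosen for large differences in these same data, so a reversal was unlikely from the start. The 278 also include values of loci named as not called, which only stayed without a call. The 5 or 6 rats per group limit what can be seen, most of all for shares.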
